A study of Mus musculus with 4 samples.

Results

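The genes described here are 28 enzymes and regulators of cholesterol and fatty acid synthesis, taken by symbol from the 32285 genes listed in each count matrix. They comprised 18 enzymes of sterol synthesis (Acat2, Hmgcs1, Mvk, Pmvk, Mvd, Idi1, Fdps, Fdft1, Sqle, Lss, Cyp51, Tm7sf2, Msmo1, Nsdhl, Hsd17b7, Ebp, Sc5d and Dhcr7), 4 genes of regulation and sterol transport (Srebf1, Srebf2, Insig1 and Stard4) and 6 enzymes of fatty acid synthesis (Acly, Acaca, Fasn, Elovl6, Scd1 and Scd2). RNA of individual cells was sequenced (scRNA-Seq, on the 10x Genomics droplet system) in 4 libraries from male C57BL/6J mice that were 20 weeks old. Fracture callus and trabecular bone were each taken at week 2 from control mice (Ctrl, a placebo pellet) and from mice given glucocorticoids (GCs, a subcutaneous slow-release pellet of prednisolone, 6.25 mg/kg/d). The labels give this treatment for all samples, whereas the study's text describes daily injection at the same dose for its fracture model, so the route in the callus mice is uncertain. Each tissue and condition had 1 library, and the sources used here do not give the number of mice behind it. Differences between GC and control therefore had no replicate check. Every interval below is an exact Poisson 95% interval that covers counting error only.

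Cholesterol is built from acetyl-CoA through mevalonate, isoprenoid pyrophosphates, squalene and lanosterol. SREBP-2, encoded by Srebf2, drives most genes of this route when membrane sterol falls, and SREBP-1, encoded by Srebf1, drives those of fatty acid synthesis. INSIG1 holds the SREBP precursors in the endoplasmic reticulum when sterols are plentiful, and its gene is itself a target of SREBP. Cells of growth cartilage and bone secrete large amounts of matrix and need membrane for the secretory route, and inherited defects of several sterol enzymes disturb the skeleton.

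Promoter sequence was examined because the shared control of these genes runs through short motifs near their starts. RefSeq promoters (GRCm38.p6, 250 bases before to 50 bases after each start) were matched for 22 of the 28 genes, and none was matched for Fdps, Fdft1, Sqle, Stard4, Scd1 and Scd2. A CCAAT box on either strand was present in promoters of 19 of these 22 genes (86.4%), against 41.1% of the 27025 genes with a promoter. The sterol regulatory element, searched as TCACNCCAC on both strands, was present in 1 of the 22 genes, Hmgcs1 (4.55%), against 1.44% of all genes. A match is a description of letters and not of binding. The windows below are those of 4 enzymes, from the mevalonate and fatty acid routes, and of the regulators Insig1 and Srebf2, shown because they hold the motifs close together or belong to genes described in detail. They are read 5′ to 3′ on the strand of the gene, with CCAAT, its reverse complement ATTGG and the sterol regulatory element in capitals. They lie at chr13:119690173-119690262 on the plus strand for Hmgcs1, chr5:114444179-114444268 on the plus strand for Mvk, chr8:122443423-122443512 on the minus strand for Mvd, chr5:28071162-28071251 on the plus strand for Insig1, chr15:82147091-82147180 on the plus strand for Srebf2 and chr11:120824560-120824649 on the minus strand for Fasn.
Hmgcs1: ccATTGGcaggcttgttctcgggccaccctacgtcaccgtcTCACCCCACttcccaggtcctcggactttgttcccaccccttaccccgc
Mvk: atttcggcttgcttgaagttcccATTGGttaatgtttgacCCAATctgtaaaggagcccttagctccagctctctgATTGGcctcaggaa
Mvd: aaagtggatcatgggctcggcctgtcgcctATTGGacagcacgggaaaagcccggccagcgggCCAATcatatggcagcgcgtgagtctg
Insig1: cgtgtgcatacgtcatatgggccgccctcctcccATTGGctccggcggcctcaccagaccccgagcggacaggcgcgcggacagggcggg
Srebf2: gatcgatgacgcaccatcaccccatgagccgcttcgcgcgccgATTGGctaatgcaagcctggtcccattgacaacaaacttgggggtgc
Fasn: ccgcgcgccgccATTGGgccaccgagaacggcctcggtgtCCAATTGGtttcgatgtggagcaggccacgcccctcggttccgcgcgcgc
The Hmgcs1 window held both motifs, the Mvk window held 3 CCAAT boxes, and the Fasn window held 3, of which 2 overlap as CCAATTGG.

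After filtering, 6706 control and 6890 GC cells of the callus and 3806 control and 4602 GC cells of trabecular bone were kept, with median totals of 3270 to 6303.5 UMIs (unique molecular identifiers) per cell. Pairs of libraries shared 7 to 11 cell barcodes. Clusters were named from marker genes after the 28 genes, the other pathway genes and 2 stress and hormone response lists had been left out of clustering, and 19 callus and 11 trabecular classes with at least 15 cells in each library were compared. Callus cells included chondrocytes with high cartilage matrix, hypertrophic chondrocytes, osteoblasts or osteocytes and osteoclasts. Trabecular cells were mostly of the marrow: stromal cells numbered 18 in control and 46 in GC, and no osteoblast class passed the minimum. Clusters with at least 95% of their cells from 1 library held 1.74% of callus control, 19.4% of callus GC, 46.7% of trabecular control and 59.3% of trabecular GC cells, so several results below are given again without them. Clusters with close marker scores for different lineages were set aside as mixed and not compared. They held 9 control (0.134%) and 356 GC cells (5.17%) of the callus and 3 and 23 of trabecular bone. The callus GC matrix was deposited already filtered, whereas the other 3 listed all barcodes. Levels are given as CPM, the UMIs of a gene or list per 1000000 UMIs of a class, and are compared between classes, not between genes.

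In control callus, sterol synthesis genes were highest in cartilage. Their summed level was 1439 CPM (1391–1488) in cluster 7.3, a cluster led by Col10a1, Ihh and Pcolce2 that carried hypertrophic markers together with more chondrocyte markers and is kept by its number. The class of other chondrocytes, which pools clusters of unlike level, had 843 CPM. Hypertrophic chondrocytes had 371, osteoblasts or osteocytes 334, stromal cells 273 and osteoclasts 236. The last 2 values and those of endothelial cells (315), T cells (280) and plasma cells (278) lay close together. Cartilage cells and osteoclasts were deeply sequenced, with medians of 26825 UMIs per control cell in cluster 7.3, 24930 in chondrocytes, 18170 in hypertrophic chondrocytes and 19261 in osteoclasts. Medians were lower in endothelial cells (4877), T cells (2687.5) and plasma cells (8993.5), and the part of depth in the levels was not tested. Outside cartilage, plasmacytoid dendritic cells had 387 CPM (315–471), above the value of hypertrophic chondrocytes, and immature neutrophils had 348, above that of osteoblasts or osteocytes. Of the classes compared, cluster 5, which carried monocyte markers, was lowest at 157 CPM. Mast cells or basophils, not compared because GC had 3 cells, had 93.7 CPM (25.5–240) in 16 control cells. Among the compared classes of control trabecular bone, granulocyte-monocyte progenitors had the highest level, 398 CPM, and monocytes had 381. Hemoglobin-rich erythroblasts had the lowest, 90.2, and immature and mature neutrophils had 262 and 266. Plasmacytoid dendritic cells, not compared because GC had 11 cells, lay higher, at 685 CPM (598–781) in 37 control cells. Free RNA was read from empty droplets, which in the callus control library held the sterol list at 565 CPM and cartilage matrix genes at 48147 CPM. Cartilage matrix genes stood at 2386 to 6137 CPM in the blood cell classes of control callus. The part of free RNA in the blood cell levels was not tested.

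**Figure D1:**
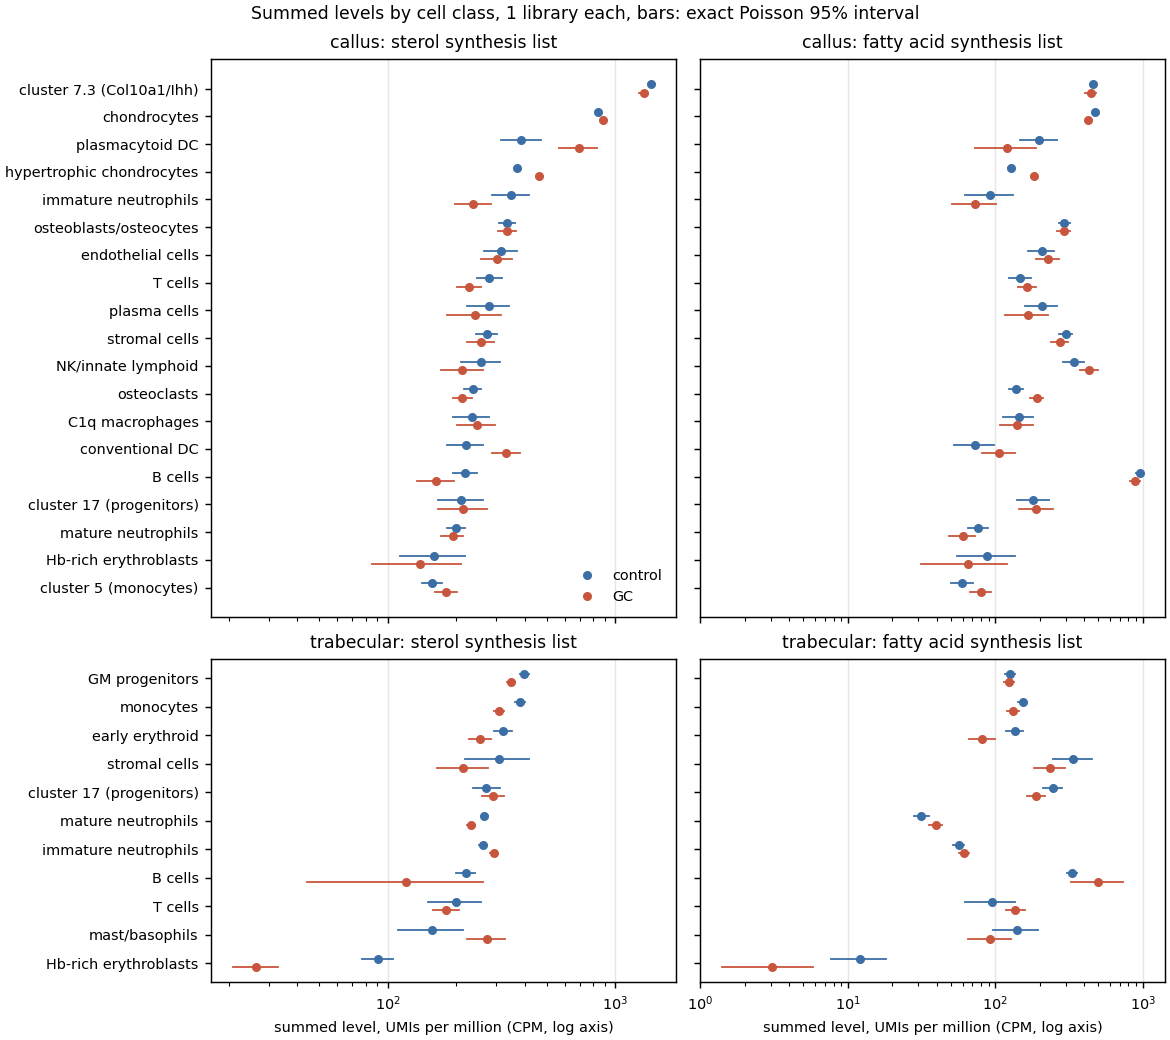
Summed level (CPM, log axis) of the sterol synthesis list (left) and the fatty acid synthesis list (right) in each cell class of callus (top) and trabecular bone (bottom). Each point is 1 library (blue, control; red, GC) with its exact Poisson 95% interval. Cluster 7.3 and chondrocytes sit highest for the sterol list, and callus B cells highest for the fatty acid list.

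The enzymes did not all share this order. Of the 18 sterol genes, 13 had their highest level among 60 profiles (a class in a library) in cluster 7.3. Cluster 7.3 is a profile of its own, whereas other high clusters are pooled in the chondrocyte profile. For the summed list, control cluster 8.3 had 1384 CPM (1346–1424), close to the 1439 of cluster 7.3. In GC, clusters 8.0 (1523) and 8.4 (1683) lay above cluster 7.3 (1332). Hmgcs1, which makes HMG-CoA for the mevalonate route, reached 250 CPM in control cells of cluster 7.3. It had 137 in chondrocytes, 55.1 in hypertrophic chondrocytes and 65.3 in osteoblasts or osteocytes. Fdps, the farnesyl pyrophosphate synthase that bisphosphonates inhibit, stood at 229 CPM in cluster 7.3 and at 125 in chondrocytes, but also at 160 in trabecular granulocyte-monocyte progenitors. Idi1, the isopentenyl diphosphate isomerase, had 158 CPM in cluster 7.3 and 72.6 in chondrocytes. Outside cartilage, Pmvk (phosphomevalonate kinase) was highest in trabecular mature neutrophils of GC mice at 76.0 CPM. Ebp, a sterol isomerase, was highest in trabecular monocytes of GC mice at 85.0 CPM. Sc5d, a late sterol desaturase, was highest in callus NK or innate lymphoid cells of control mice at 87.1 CPM. Tm7sf2, a sterol reductase, was at 0 in 20 of the 60 profiles and Lss, the lanosterol synthase, in 13, so their ratios could be formed in few classes.

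Among the regulators, Insig1 followed cartilage. Its control level was 200 CPM (183–219) in cluster 7.3, 129 in chondrocytes, 106 in osteoblasts or osteocytes and 75.6 in hypertrophic chondrocytes, while trabecular monocytes had 76.9. Srebf2 was spread more evenly: it stood at 68.1 CPM in control chondrocytes, at 114 in callus B cells and at 106 in conventional dendritic cells, and its lowest profile had 6.42. Stard4, a carrier of cholesterol between membranes, had 98.0 CPM in cluster 7.3 and 49.5 in chondrocytes. Srebf1 stayed below 44.4 CPM in every other profile than that of GC plasmacytoid dendritic cells, where it had this value.

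Fatty acid synthesis genes had 2 centers in the callus, and their highest level was not in cartilage. Control B cells held the list at 956 CPM, of which Scd1, a stearoyl-CoA desaturase, made up 805 CPM (756–856). Scd1 had 118 CPM in control chondrocytes and 135 CPM in control trabecular B cells, and these values lay far from that of callus B cells. Chondrocytes held the list at 472 CPM and cluster 7.3 at 463, with Scd2, the second desaturase, at 205 CPM in both. Callus NK or innate lymphoid cells held the list at 341 CPM, with the highest Elovl6 (a fatty acid elongase, 40.0 CPM) and, in GC, the highest Scd2 (293 CPM) of all profiles. Trabecular mature and immature neutrophils were low for the list, at 31.5 and 56.4 CPM. Fasn, the fatty acid synthase, tracked the rest of its list over the 60 profiles with a Spearman correlation of 0.69, and Acly, the ATP citrate lyase that supplies acetyl-CoA, with 0.27. Profiles share libraries, so these correlations are descriptions.

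**Figure D2:**
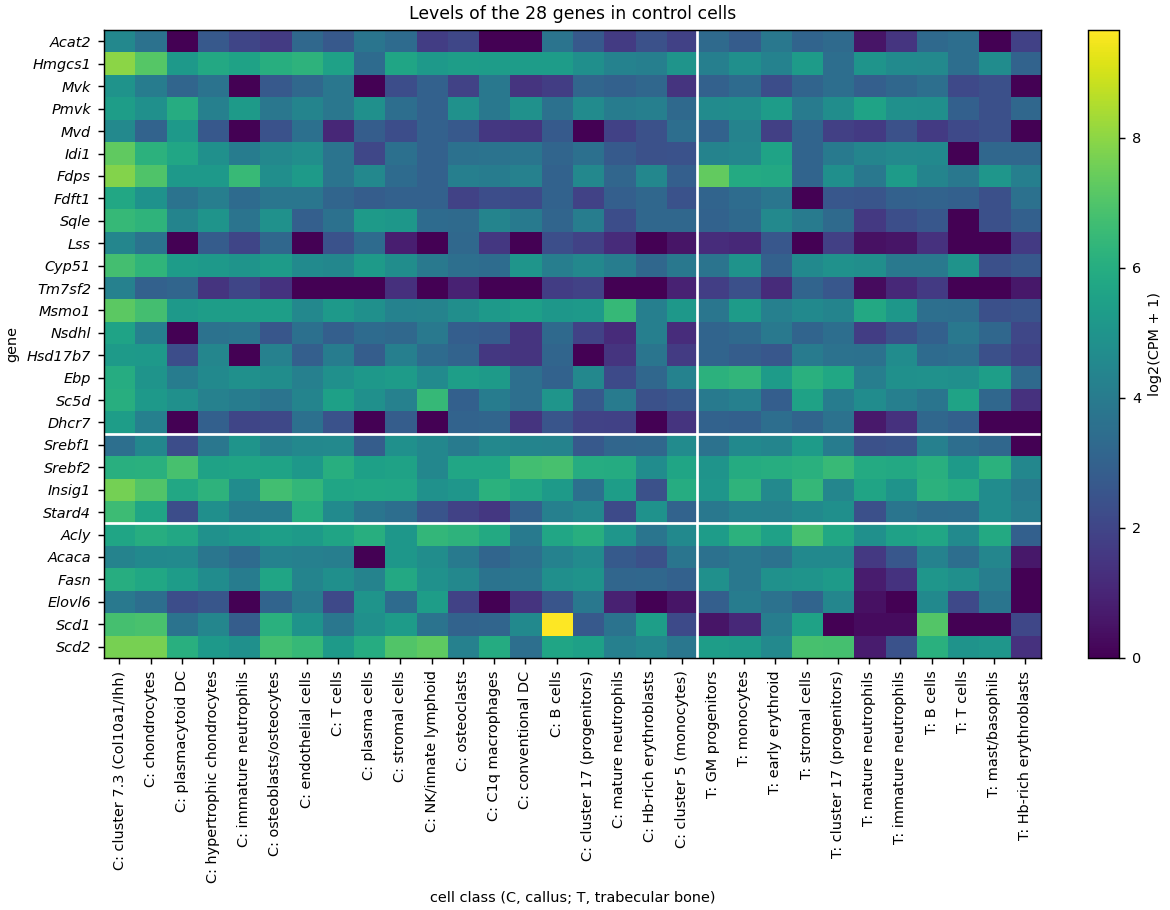
Level of each of the 28 genes (rows, log2 of CPM plus 1) in control cells of each class (columns; C, callus; T, trabecular bone), with white lines between sterol synthesis, regulator and fatty acid genes and between tissues. The 2 columns at the left, cluster 7.3 and chondrocytes, are bright for most sterol genes, and Scd1 in callus B cells is the brightest cell.

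Within the cartilage cells, sterol synthesis varied widely between clusters. In control, cluster 3 (hypertrophic, led by Mmp13 and Col10a1) had 370 CPM, cluster 7.4 had 483, cluster 2 (led by C1qtnf3 and Ucma) had 627, and clusters 8.0 and 8.3 (led by Matn3, Hapln1 and Col2a1) had 1302 and 1384. The cycling cluster 25 (Top2a and Mki67), which GC cells reached with 10 cells only, had 805 CPM. Of 15 clusters with at least 15 cells in each library, the GC interval lay above the control interval in 8 and below it in 2, and the intervals overlapped in 5. Cluster 8.4 had 1047 CPM in control and 1683 in GC, cluster 8.1 had 777 and 1230, and cluster 8.2 had 561 and 884. Clusters 7.2 (965 and 740) and 7.4 (483 and 331) went the other way.

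**Figure D3:**
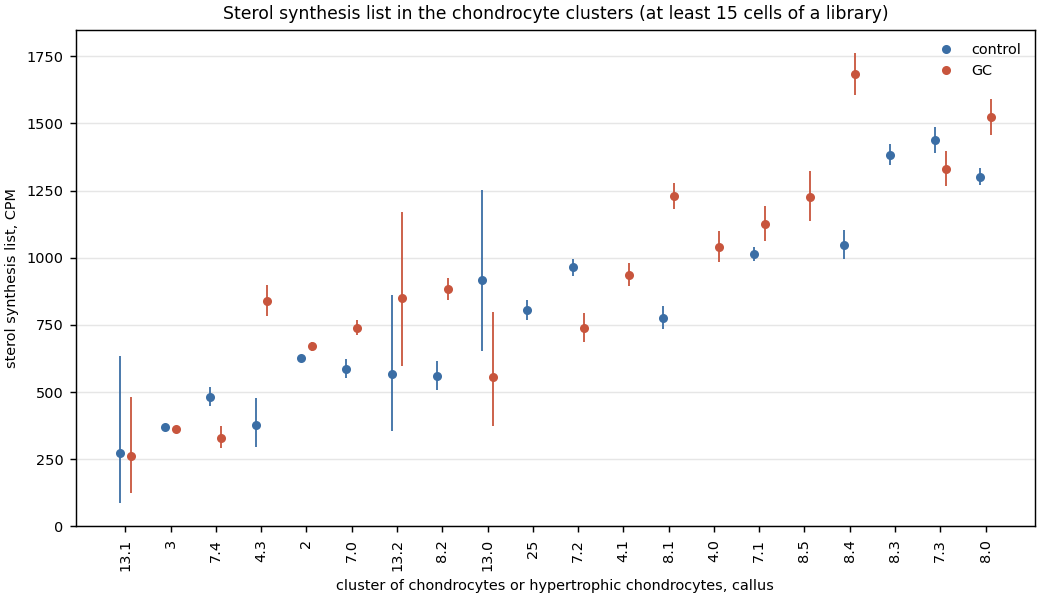
Summed level of the sterol synthesis list (CPM, linear axis) in the callus clusters of chondrocytes and hypertrophic chondrocytes, ordered by mean level, for control (blue) and GC (red) with exact Poisson 95% intervals. Points are shown where a library had at least 15 cells in the cluster, so clusters 4.0, 4.1 and 8.5 show GC and clusters 25 and 8.3 show control alone.

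Pooled over all chondrocytes, the lists differed little between GC and control, unlike in some of the single clusters above. The sterol list had 843 CPM in control and 885 in GC, a ratio of 1.05 (1.03–1.07), the regulators 268 and 300 (1.12, 1.09–1.15), and the fatty acid list 472 and 426 (0.903, 0.883–0.925). Depth differed, with medians of 24930 UMIs per control cell and 10920 per GC cell, and its part was not tested. Clusters were also filled unequally. Cluster 4.0 held 3 control and 608 GC cells, with 1041 CPM in GC, and cluster 8.3 held 121 control and 11 GC cells, with 1384 CPM in control. Without clusters mostly of 1 library the sterol ratio was 1.04 (1.02–1.06), and the part of the cluster mix was not tested. The sterol ratio ran from 1.04 to 1.20 over the alternatives, and the fatty acid ratio changed direction with the cell filters, to 1.09 with at most 5% mitochondrial UMIs. All 28 genes had at least 50 UMIs over both libraries, and none was 1.5-fold higher or lower in GC, where 1.84% of the 13006 genes tested were higher and 2.45% lower by that fold. Ratios are given as log2 with 5 CPM added to both levels. Idi1 had the highest, at 0.42 (72.6 CPM in control and 98.8 in GC), followed by Msmo1, a sterol methyl oxidase, at 0.27 and Cyp51, the lanosterol demethylase, at 0.24. Pmvk had the lowest, at -0.41 (27.9 and 19.7 CPM), followed by Acat2, which joins acetyl-CoA units, at -0.38 and Mvk, the mevalonate kinase, at -0.36 (15.7 and 11.1 CPM). Mvd, a decarboxylase further along the route, had 7.52 and 6.80 CPM (-0.09). Steps next to each other in the mevalonate route thus lay on both sides of 0. Pmvk was below control in 4 of the 4 callus classes where it was tested, with an interval below 1 in 3, and Ebp in 7 of 7, with an interval below 1 in 5. At Leiden resolution 0.5, however, hypertrophic chondrocytes had log2 ratios of 0.06 for Pmvk and 0.1 for Ebp. In chondrocytes Ebp had 0.08 with the UMI cutoff only. Idi1 was above control in 5 of 5, but with an interval above 1 in 2 of them, and in osteoblasts or osteocytes its log2 ratio was -0.35 as a mean over cells.

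In hypertrophic chondrocytes the lists were higher in GC, and this was not seen once clusters mostly of 1 library were left out. The sterol list had 371 CPM in control and 464 in GC (a ratio of 1.25), and the fatty acid list 128 and 183 (1.43, 1.34–1.53). Of 28 genes tested, 4 were at least 1.5-fold higher and 0 lower, against 4.24% and 2.05% of 10981 genes. They were Idi1 (27.7 and 57.4 CPM, log2 0.93), Cyp51 (35.5 and 61.5 CPM, 0.71), Scd1 (20.4 and 42.1 CPM, 0.89) and Scd2 (36.1 and 56.7 CPM, 0.59). Cluster 4.1 supplied 293 of the 944 GC cells and 0 control cells, with a sterol level of 936 CPM. Markers named it by a narrow margin, with a mean score of 2.46 for hypertrophic chondrocytes and 2.44 for chondrocytes. Its cartilage matrix genes stood at 73133 CPM, against 25551 in GC cells of cluster 3. Cluster 3, with 612 control and 591 GC cells, had sterol levels of 370 and 363 CPM. Without clusters mostly of 1 library the sterol ratio was 0.982 (0.940–1.03), the fatty acid ratio 0.907 (0.839–0.979), and 0 of the members were 1.5-fold higher. The share of all genes past that fold was not computed without these clusters. Idi1 and Cyp51 then had log2 ratios of 0.50 and 0.41, Scd1 and Scd2 of -0.37 and -0.19. Insig1 had 75.6 CPM in control and 110 in GC (0.51), but -0.05 without such clusters and -0.12 with doublets kept.

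In bone-forming and bone-resorbing cells of the callus the values depended on the cell filters. In osteoblasts or osteocytes the sterol list had 334 CPM in control and 335 in GC (interval of the ratio 0.890–1.13). The ratio ran, however, from 0.833 with cells thinned to 1000 UMIs to 1.8 with the UMI cutoff only. Of 17 genes tested, 0 were higher and 2 lower by 1.5-fold, against 5.46% and 5.53% of 6042 genes: Ebp (25.5 and 13.4 CPM, log2 -0.73) and Sqle, the squalene epoxidase (28.2 and 16.1 CPM, -0.66). With the UMI cutoff only, 8 genes were higher and 0 lower, and the share of all genes under this setting was not computed. Sqle changed direction under 3 cell filters, while Insig1 was above control at 106 and 154 CPM (ratio 1.46, 1.20–1.78). The log2 ratio of Insig1, 0.52, was 0.11 with at most 5% mitochondrial UMIs. In osteoclasts the sterol list had 236 and 213 CPM (0.903, 0.793–1.03) and the fatty acid list 138 and 191 (1.38, 1.18–1.61). The sterol ratio was 1.45 with at least 1000 genes per cell, and the fatty acid ratio ran from 1.13 without cells with a UMI of a cell cycle gene to 2.16 with at most 5% mitochondrial UMIs. In the main setting Acly had 74.1 CPM in control and 136 in GC (log2 0.83). Its difference was larger than that of the fatty acid list, whose other enzymes were together lower in GC. Of 14 genes tested in osteoclasts, 2 were higher (Acly, and Sqle at 0.74) and 3 lower (Fdps -0.77, Ebp -0.65, Scd2 -0.63), against 5.36% and 5.22% of 6992 genes. With at least 1000 genes per cell 12 genes were higher and 1 lower, and with thinned cells 0 were called. Scd2 changed direction in 6 of 14 alternatives. Cartilage matrix in osteoclasts was 2638 CPM in control and 665 in GC, a ratio of 0.252, and its part in these values was not tested.

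Counting classes, the sterol list was higher in GC in 4 of 19 callus classes and lower in 4, and the fatty acid list higher in 4 and lower in 1. The higher sterol classes were chondrocytes, hypertrophic chondrocytes, conventional dendritic cells (220 and 332 CPM, ratio 1.51) and plasmacytoid dendritic cells (387 and 692 CPM, 1.79). With cells thinned to 1000 UMIs the last 2 ratios were 1.07 and 1.35. Hmgcs1 stood out in conventional dendritic cells, with 39.0 CPM in control and 112 in GC. The lower ones were cluster 7.3 (1439 and 1332 CPM), B cells (218 and 163), T cells (280 and 228) and immature neutrophils (348 and 238). Of 3 sterol genes tested in T cells, 2 were above control and 1 below, whereas in B cells all 3 tested were below. The median log2 ratio of all genes tested was -0.17 in both classes. In callus B cells Hmgcs1 had 39.8 and 14.7 CPM and Srebf2 had 114 and 72.0, whereas Scd1 had 805 and 751 with an interval of the ratio that held 1. Cartilage matrix genes were also lower in 16 of the 19 callus classes, with 4186 and 1892 CPM in B cells, 3597 and 1708 in T cells and 2386 and 658 in immature neutrophils, and the sterol levels of these 3 classes lay below the 565 CPM of empty droplets. Genes of dissociation stress were lower in GC in 17 of the 19 callus classes, and genes of the glucocorticoid response were higher in 12. Their part in the list values was not tested.

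**Figure D4:**
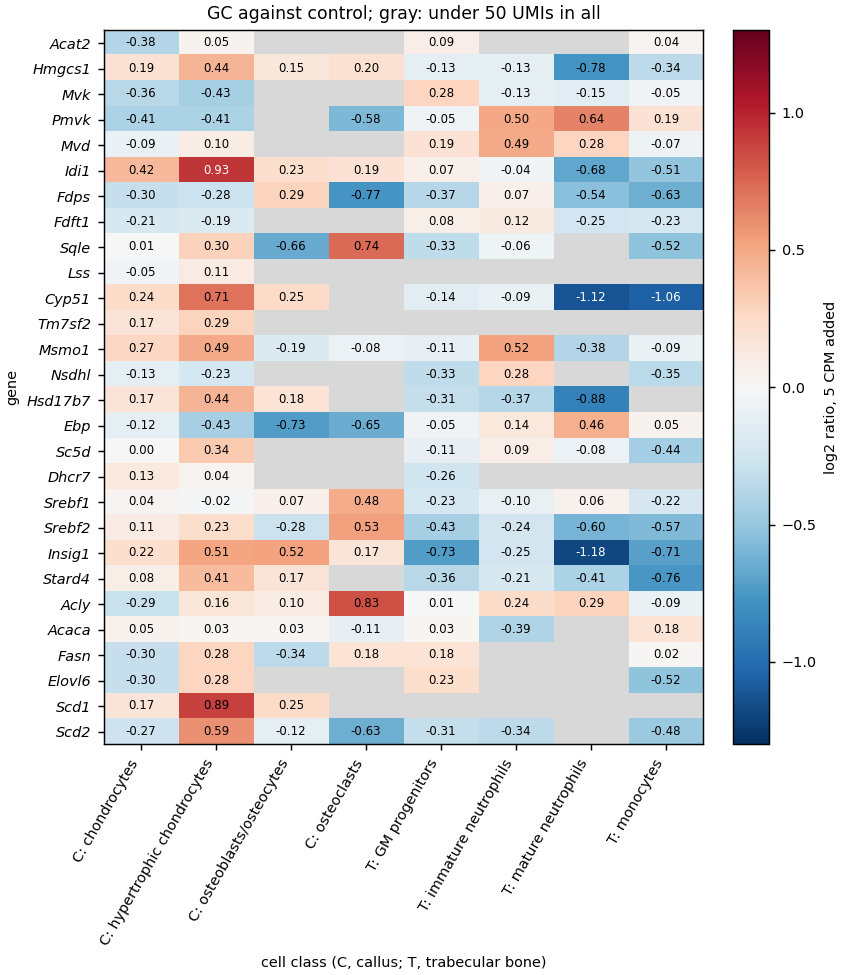
Log2 ratio of GC to control (5 CPM added) for each of the 28 genes in 4 callus classes (C) and 4 trabecular classes (T), 1 library per condition, red for higher and blue for lower in GC, gray where fewer than 50 UMIs were counted. The chondrocyte column stays between -0.41 and 0.42. Insig1 is below 0 in the 4 trabecular classes drawn and above 0 in the 4 callus classes drawn. Over all 13 callus classes tested, however, Insig1 was below control in 7 and above it in 6. Without clusters mostly of 1 library its value was -0.05 in hypertrophic chondrocytes and -0.01 in trabecular immature neutrophils.

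In trabecular bone, the list of 4 regulator and sterol transport genes was lower in GC in most classes. Its summed level was lower in 7 of 11 classes and higher in 0. The 7 included hemoglobin-rich erythroblasts (ratio 0.273), where the median ratio of all genes tested was also below 1. The 7 became 4 without cells with a UMI of a cell cycle gene and 5 without clusters mostly of 1 library, and no alternative gave a higher class. It was 178 CPM in control and 111 in GC monocytes (ratio 0.626, 0.556–0.704), 89.1 and 58.2 in granulocyte-monocyte progenitors (0.653, 0.564–0.756), 103 and 85.4 in immature neutrophils (0.826) and 116 and 62.2 in mature neutrophils (0.538, 0.485–0.596). Monocytes and the progenitors were clustered from cells of both libraries: cluster 9, the largest of monocytes, had 191 CPM in control and 119 in GC, and cluster 7, the largest of the progenitors, had 81.3 and 54.7. Over all alternatives tried, the ratio ran from 0.511 to 0.640 in monocytes and from 0.509 to 0.701 in the progenitors. Genes of the glucocorticoid response were higher in 10 of the 11 trabecular classes. Empty droplets held the regulator list at 103 CPM (76.1–137) for trabecular control and at 70.7 CPM (49.5–97.9) for trabecular GC. The progenitor levels lay below these values, though within their intervals. Levels of immature and mature neutrophils also lay within the intervals, and the monocyte levels lay above them. The part of free RNA in the regulator ratios was not tested.

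Mature neutrophils of the 2 trabecular libraries fell into different clusters. Control cells lay in clusters 3.0, 3.1, 4 and 5, with regulators at 72.4 to 182 CPM, and GC cells in clusters 1, 2.0 to 2.3, 3.2 and 8, with 35.3 to 105 CPM. Within cluster 4 the level was 86.9 CPM in control and 77.0 in GC, with overlapping intervals. Without clusters mostly of 1 library the ratio was 0.887 (0.558–1.35) in place of 0.538. Condition and cluster therefore cannot be told apart for this class. Immature neutrophils were split in part in the same way, and without such clusters their ratio was 0.901 (0.783–1.04).

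Insig1 was the most regular of the members in trabecular bone. It was below control in 6 of the 6 classes where it was tested, with an interval below 1 in 5. Mature neutrophils had 432 UMIs in control and 177 in GC, or 48.5 and 18.6 CPM (log2 -1.18). Monocytes had 76.9 and 44.9 CPM (-0.71), granulocyte-monocyte progenitors 32.8 and 17.7 (-0.73), T cells 60.7 and 27.2 (-1.03) and immature neutrophils 29.8 and 24.2 (-0.25). In mature neutrophils the log2 ratio was -0.61 without clusters mostly of 1 library, the value nearest to 0 among the alternatives, and in immature neutrophils it was -0.01. In callus classes Insig1 was below control in 7 and above it in 6 of 13. The gene lies at chr5:28071363-28078662 on the plus strand of GRCm38 and starts after the window printed above.

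Srebf2 was below control in 7 of the 9 trabecular classes tested, with an interval below 1 in 5. Its values were 259 and 159 UMIs in monocytes (log2 -0.57), 31.2 and 21.9 CPM in granulocyte-monocyte progenitors (-0.43), 56.5 and 47.1 in immature neutrophils (-0.24) and 58.8 and 37.1 in mature neutrophils (-0.60). The last of these changed direction, to 0.26, without clusters mostly of 1 library. Stard4 had 18.3 and 8.79 CPM in monocytes (-0.76). Srebf1 differed less, with 22.7 and 18.8 CPM in monocytes (-0.22) and intervals of the ratio that held 1 in the 4 trabecular classes where it was tested.

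**Figure D5:**
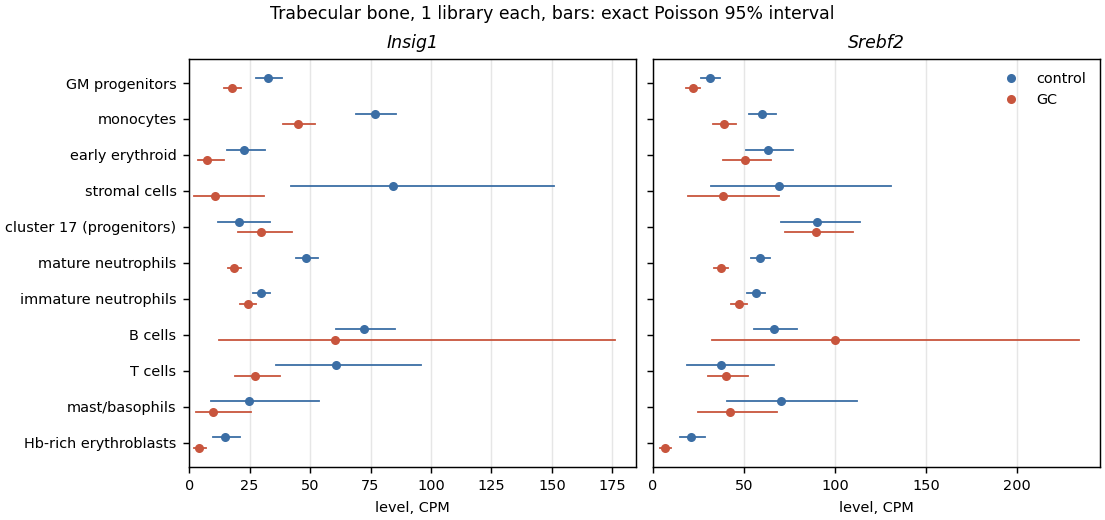
Level (CPM) of Insig1 (left) and Srebf2 (right) in the 11 trabecular classes, for control (blue) and GC (red), 1 library each, with exact Poisson 95% intervals. Insig1 intervals do not overlap in granulocyte-monocyte progenitors, monocytes, mature neutrophils, stromal cells and both erythroid classes, and the interval of the 16 GC B cells is the widest. The stromal and erythroid classes had too few Insig1 UMIs for a ratio and are not among the 6 classes tested. Stromal cells numbered 18 in control. In hemoglobin-rich erythroblasts the median ratio of all genes tested was also below 1.

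The sterol enzymes were lower together with the regulators in some trabecular classes and not in others. Their list was lower in GC in 5 of 11 classes and higher in 2. Monocytes had 381 CPM in control and 308 in GC (0.809, 0.751–0.871), granulocyte-monocyte progenitors 398 and 348 (0.873, 0.819–0.931), early erythroid progenitors 322 and 255 (0.791, 0.684–0.914) and mature neutrophils 266 and 232 (0.870, 0.820–0.922). Without clusters mostly of 1 library the ratio in mature neutrophils was 0.956, with an interval that held 1 (0.729–1.23). Immature neutrophils had 262 and 292 (1.11, 1.05–1.18), so that in this class enzymes were higher and regulators lower. Without clusters mostly of 1 library the enzyme ratio there was 1.10 (1.01–1.19), but the interval of the regulator ratio, 0.901 (0.783–1.04), held 1. Mast cells or basophils had 157 and 272 (1.73, 1.19–2.58) from 29 and 43 cells. Hemoglobin-rich erythroblasts had 90.2 and 26.4 CPM (0.292, 0.221–0.384), but the median log2 ratio of all 2741 genes tested there was -1.10, and with at least 1000 genes per cell the sterol ratio was 1.15.

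By gene, in monocytes 0 of 23 members tested were 1.5-fold higher and 4 were lower, against 1.14% and 2.38% of 8430 genes, and the median of the 23 was -0.34 against -0.01 for all genes. The 4 were Insig1, Stard4, Cyp51 (30.4 CPM in control, log2 -1.06) and Fdps (59.3 and 36.6 CPM, -0.63). In granulocyte-monocyte progenitors 0 of 25 were higher and 1, Insig1, was lower, against 0.600% and 0.936% of 8329 genes, and Fdps had 160 and 123 CPM (-0.37). In immature neutrophils 0 of 21 were called in either direction, against 2.12% and 1.28% of 7877 genes, and Pmvk (27.5 and 40.8 CPM) and Msmo1 (33.3 and 49.9 CPM) had log2 ratios of 0.50 and 0.52.

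In trabecular mature neutrophils 1 of 17 members tested was higher and 6 were lower, against 14.6% and 2.58% of 7284 genes. The median of the 17 was -0.38, whereas that of all genes was 0.26. Along the pathway, the lower members were Hmgcs1 (31.3 and 16.2 CPM, log2 -0.78), Idi1 (19.9 and 10.5 CPM, -0.68), Cyp51 (26.5 and 9.46 CPM, -1.12) and Hsd17b7, a sterol ketoreductase (11.1 and 3.78 CPM, -0.88), together with Insig1 and Srebf2. Pmvk, the kinase between Hmgcs1 and Idi1 in the route, was the higher one, with 47.0 and 76.0 CPM (0.64). Without clusters mostly of 1 library, 2 of the 9 members still tested were lower, Cyp51 at -1.45 and Insig1 at -0.61. Hmgcs1 was then at -0.30 and Pmvk at 0.19, and the share of all genes was not computed.

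The fatty acid list was lower in GC in 4 of 11 trabecular classes and higher in 1. Among the lower were cluster 17, with markers of hematopoietic stem and progenitor cells (ratio 0.771), and hemoglobin-rich erythroblasts (0.252). In the erythroblasts the median ratio of all genes tested was also below 1. Monocytes had 153 and 132 CPM (0.862, 0.768–0.968), with Scd2 at 37.1 and 25.2 CPM and Elovl6 at 15.8 and 9.53. Early erythroid progenitors had 136 and 81.3 CPM (0.599, 0.466–0.766), with Acly at 45.6 and 28.5 CPM. Granulocyte-monocyte progenitors had 126 and 123 CPM with an interval of the ratio that held 1, and Fasn there had 27.4 and 31.8 CPM. Mature neutrophils, the class that was higher, had 31.5 and 39.5 CPM (1.25, 1.07–1.47), most of it Acly at 27.6 and 34.9 CPM. Divided by the median ratio of all genes tested in this class, the list ratio was 1.05. Without clusters mostly of 1 library the ratio was 1.27, with an interval that held 1 (0.487–2.8). Trabecular B cells numbered 319 in control and 16 in GC, and the list had 331 and 501 CPM (1.52, 0.974–2.26). All 16 GC cells lay in cluster 20, where control cells had 450 CPM.

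Of 35 other genes of the pathway tested in callus chondrocytes, 2 were higher and 1 lower by 1.5-fold, against 1.84% and 2.45% of all genes. Among the sterol and isoprenoid enzymes outside the 28, 0 of 6 were called. Of SREBP processing genes 0 of 8 were called. Of uptake, storage and LXR target genes 1 of 9 tested was higher, Mylip, an LXR target (16.7 and 27.6 CPM, log2 0.59). Of other fatty acid enzymes 1 of 12 was higher, Acsl4 (48.7 and 75.7 CPM, 0.59), and 1 lower, Lpin1 (38.3 CPM in control, -0.71). In trabecular mature neutrophils 3 of 27 were higher and 1 lower, against 14.6% and 2.58% of all genes. The higher ones were Elovl5 (2.69 and 15.2 CPM, 1.40), Nus1 (3.59 and 9.88 CPM, 0.79) and Abcg1 (15.7 and 29.5 CPM, 0.74).

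The genes whose levels ran most closely with the summed sterol list were ranked over the 60 profiles. Among 8613 genes ranked, the 10 closest were Bet1, Kdelr1, Ier3ip1, Dnajc10, Ostc, Tmem167, Kdelr2, Pdia5, Tmed3 and Dnajc25, with Spearman correlations of 0.69 for Bet1 to 0.66 for Dnajc25. Bet1 is a SNARE of transport from the endoplasmic reticulum to the Golgi, Kdelr1 and Kdelr2 are retrieval receptors, and Dnajc10 and Pdia5 act in protein folding. The profiles share 4 libraries and their depth, and these values are descriptions.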

How the data were processed

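Cells of fracture callus and trabecular bone were profiled by 10x Genomics scRNA-Seq in 4 libraries, 1 per tissue and condition. The authors deposited UMI counts per gene and barcode, not normalized; per the labels they used Cell Ranger 5.0.1, Seurat 3.2.0 and mm10, while the matrix headers name Cell Ranger 4. Total depth was 41239842 to 95852254 UMIs per library. For 3 libraries cells were called from all barcodes against the empty droplet profile (false discovery rate 0.01, at least 500 UMIs tested, 10000 draws); the callus GC matrix was already filtered. Cells with at least 200 genes and at most 10% mitochondrial UMIs were kept, and doublets were removed by score at an expected rate of 0.8% per 1000 cells. Clusters (2000 variable genes, 30 components, Leiden resolution 1, leidenalg 0.10.2, Python 3.11.15) left out 87 genes, among them the 28 members. A class needed 3 markers at 2-fold. Class sums gave CPM with exact Poisson 95% intervals, and ratios had exact conditional intervals. A list was called higher or lower in a class where that interval excluded 1. Genes with at least 50 UMIs over both libraries were called at 1.5-fold with 5 CPM added. There was 1 replicate per group, so no test between conditions was made. Intervals cover counting error only. The named genes were all 28 members, the other pathway genes past 1.5-fold in the largest class of each tissue apart from genes not reported here, and the 10 genes closest to the sterol list; the gene of the closing section was added after its values were seen. The members and lists were chosen with earlier results of these data known. Alternatives varied the cell filters, doublets, clustering, denominator, thinning to 1000 UMIs, pseudocount and count minimum. Leaving out clusters with 95% of cells from 1 library, and keeping mixed clusters, were added after seeing the data. The scripts were tested on simulated data.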

Additional observations from a re-analysis of the deposited data

Results flagged for a closer look

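In immature neutrophils the sterol synthesis list lay on opposite sides of 1 in the tissues: the ratio of GC to control was 0.683 in callus and 1.11 in trabecular bone. The difference between the tissues was not tested, since each value comes from 1 library per condition. The callus value rested on 35 control and 76 GC cells and changed direction in 4 alternatives.

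Droplets without a cell, which enter no comparison, held UMIs of the 28 genes. Summed over these genes, the level was 1101 CPM in the callus control library, 398 CPM in the trabecular control library and 318 CPM in the trabecular GC library. The sterol list alone stood at 565, 217 and 175 CPM in these droplets.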

How the results depend on the processing

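No paired analysis was possible because each group had 1 library. Of 1024 list ratios recomputed under the alternatives, 100 lay on the other side of 1 from the reported value, among them 20 whose reported interval excluded 1. Of 2550 member log2 ratios, 153 lay on the other side of 0, among them 15 of genes reported past 1.5-fold. These 20 and 15 are given below. The number of callus classes with a higher sterol list, 4, became 1 with cells thinned to 1000 UMIs, 8 with at most 5% mitochondrial UMIs, 9 with doublets kept, 9 at Leiden resolution 2 and 7 with mixed clusters kept. The callus count for fatty acid synthesis, 4, became 2 with thinning, 7 with doublets kept and 2 without cells with a UMI of a cell cycle gene. The trabecular sterol count, 2, became 0 with thinning and 1 with at least 1000 genes per cell, with doublets kept or without cycling cells. The trabecular fatty acid count, 1, became 3 with hemoglobin, mitochondrial and ribosomal protein genes left out of the total, 0 with thinning, 2 with at most 5% mitochondrial UMIs, 3 with doublets kept and 0 without clusters mostly of 1 library. Thinning also leaves fewer UMIs in a class, so its intervals are wider. Causes were not tested.

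With cells thinned to 1000 UMIs, ratios that changed direction were those of the regulators in callus NK or innate lymphoid cells (0.890), the sterol list in callus T cells (1.13) and callus immature neutrophils (1.11) and the fatty acid list in trabecular early erythroid progenitors (1.03). In chondrocytes the fatty acid ratio became 1.01 as a mean over cells, 1.09 with at most 5% mitochondrial UMIs, 1.08 with doublets kept and 1.05 with the UMI cutoff only. With at most 5% mitochondrial UMIs, hypertrophic chondrocytes had 0.940 for the sterol list, 0.976 for fatty acids and log2 ratios of -0.07 for Scd1 and -0.05 for Scd2, and callus immature neutrophils had 1.19 for the sterol list. With doublets kept, the fatty acid ratio in hypertrophic chondrocytes was 0.956, Scd1 there -0.41, the sterol ratio in callus immature neutrophils 1.11 and the regulators in callus stromal cells 1.08 (1.12 with the UMI cutoff only). With at least 1000 genes per cell, hypertrophic chondrocytes had a sterol ratio of 0.949 and trabecular hemoglobin-rich erythroblasts 1.15. Without clusters mostly of 1 library, hypertrophic chondrocytes had 0.982 (sterol), 0.907 (fatty acids), -0.37 (Scd1) and -0.19 (Scd2), and Srebf2 in trabecular mature neutrophils 0.26. Mixed clusters gave 1.78 for the sterol list in callus immature neutrophils. Sqle in osteoblasts or osteocytes became 0.26 with at most 5% mitochondrial UMIs, 0.21 with doublets and 0.52 with the UMI cutoff. Scd2 in osteoclasts became 1.09, 1.12, 0.45, 0.49, 0.91 and 0.68 with at most 5% mitochondrial UMIs, at least 1000 genes, doublets, the UMI cutoff, resolution 2 and mixed clusters. Genes under 50 UMIs and classes under 15 cells in a library gave no ratio.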

Other observations

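Mylip, an LXR target, was chosen here after its values were seen. In callus it was above control in 11 of the 13 classes tested, each time with an interval of the ratio above 1. In cluster 5, which carried monocyte markers, it had 47.7 CPM in control and 218 in GC, in conventional dendritic cells 70.9 and 220, and in NK or innate lymphoid cells 47.1 and 152. In trabecular bone it was below control in 4 of the 6 classes tested, and above it in early erythroid progenitors and in mature neutrophils (37.3 and 51.6 CPM).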
